A study of Mus musculus with 2 samples.

Results

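The genes described here are the Zbtb family, read out in 1 RNA-seq library of pre-pro-B cells and 1 library of pro-B cells of the mouse. The RefSeq accessions in the deposited transcript table were matched to mouse gene symbols from a separate gene reference. A gene was taken as a member if its symbol begins with Zbtb followed by a number, or if it is Bcl6 or Bcl6b. It also had to have a RefSeq protein-coding transcript. The rule gave 43 genes of 20250 named protein-coding genes, and 56 of 26555 named protein-coding transcripts. Levels are FPKM, that is, fragments scaled to the length of the transcript in kilobases and to the number of mapped reads, as the authors deposited them for each transcript and summed here over the transcripts of a gene. 1 member, Zbtb8os, belongs by its name only. It is named for lying on the strand opposite Zbtb8a and encodes archease, a cofactor of the tRNA ligase complex, not a zinc finger protein.

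BTB-zinc finger proteins carry an amino-terminal BTB (also called POZ) domain, through which they form dimers and bind corepressors such as NCoR and BCOR, and carboxy-terminal C2H2 zinc fingers that recognise DNA. Most members studied so far act as repressors. Several are known from blood cells, where Zbtb7a (LRF) restrains Notch signalling at the choice between the B and T lineages, Zbtb16 (PLZF) directs innate-like T cells, Zbtb17 (Miz-1) serves IL-7 signalling in early lymphocytes as a partner of Myc and Bcl6, and Bcl6 guards developing and germinal centre B cells against death.

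The pre-pro-B library came from Ebf1 -/- cells, which cannot pass that stage, grown from female mid-gestation embryonic liver. The pro-B library came from Rag2 -/- cells, which cannot rearrange their antigen receptor genes, grown from adult male bone marrow. Both were C57BL/6 cells. The cultures used Opti-MEM over a layer of OP-9 cells, a mouse stromal line that supports lymphocytes, with IL-7 at 5 ng/mL, and the pre-pro-B culture also held Scf at 10 ng/mL and Flt3l at 10 ng/mL. Cell stage, genotype, sex, age, tissue of origin and cytokines therefore differ together and cannot be told apart in any value below. With 1 library for each cell type there is no replicate error and no test of a difference between cell types. The only error given is the pair of 95% limits that Cuffdiff, the program that estimated the FPKM, wrote for each transcript, which reflects read assignment and a model of the spread, not repeated cultures.

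Markers of the labelled stages were as follows. Flt3, Kit and Cd34 summed to an FPKM of 944 in pre-pro-B and 2.82 in pro-B, while Pax5, Cd79a, Igll1 and Vpreb1 summed to 2.86 and 1507. The targeted genes were not at 0 in their own knockout libraries, with Ebf1 at 64.0 in the Ebf1 -/- library against 273 in the other, and Rag2 at 22.9 in the Rag2 -/- library against 34.5. A value over a whole transcript does not resolve a partial deletion, so these levels do not check the genotypes. Among markers of other cells, 5 stromal genes summed to 18.2 and 7.66 (Pdgfrb sets this direction, and the other 4 were higher in pro-B), 5 myeloid genes to 61.0 and 6.52, 4 T cell genes to 38.6 and 0.137, and 3 erythroid genes to 0.196 and 0.145. In bulk RNA, fewer cells of a type and less RNA per cell cannot be told apart.

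To show the start sites of 5 members that differed at least 2-fold, including the neighbours Zbtb8os and Zbtb8a, and of Zbtb7a, which holds matches to the EBF1 core, the 250 bases before a RefSeq start site are printed for 6 members (build GRCm38.p6, read 5′ to 3′ on the strand of the gene). Capitals mark CG dinucleotides, the sites at which mammalian DNA is methylated. The sequences lie at chr1:177442101-177442350 (+) for Zbtb18, chr4:129335718-129335967 (+) for Zbtb8os, chr16:23988853-23989102 (-) for Bcl6, chr4:129378029-129378278 (-) for Zbtb8a, chr9:31030394-31030643 (+) for Zbtb44 and chr10:81136021-81136270 (+) for Zbtb7a. The Zbtb18 and Bcl6 windows are those of the most upstream start listed.
Zbtb18 promoter: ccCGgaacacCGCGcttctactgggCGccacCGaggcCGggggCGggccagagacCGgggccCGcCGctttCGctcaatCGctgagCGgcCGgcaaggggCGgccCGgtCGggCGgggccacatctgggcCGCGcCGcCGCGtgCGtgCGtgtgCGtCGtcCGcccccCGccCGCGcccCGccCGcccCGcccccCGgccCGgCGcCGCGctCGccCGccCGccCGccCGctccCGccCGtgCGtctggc
Zbtb8os promoter: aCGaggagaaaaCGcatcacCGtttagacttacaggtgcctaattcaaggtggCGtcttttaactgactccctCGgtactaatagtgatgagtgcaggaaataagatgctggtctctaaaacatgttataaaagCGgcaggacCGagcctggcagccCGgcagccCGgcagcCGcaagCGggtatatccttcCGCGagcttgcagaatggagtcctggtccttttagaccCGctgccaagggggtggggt
Bcl6 promoter: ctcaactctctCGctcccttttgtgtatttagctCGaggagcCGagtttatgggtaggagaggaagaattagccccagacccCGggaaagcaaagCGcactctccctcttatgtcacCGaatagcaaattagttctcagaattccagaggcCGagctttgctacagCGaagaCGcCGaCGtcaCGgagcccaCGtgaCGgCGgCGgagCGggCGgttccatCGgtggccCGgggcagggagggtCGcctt
Zbtb8a promoter: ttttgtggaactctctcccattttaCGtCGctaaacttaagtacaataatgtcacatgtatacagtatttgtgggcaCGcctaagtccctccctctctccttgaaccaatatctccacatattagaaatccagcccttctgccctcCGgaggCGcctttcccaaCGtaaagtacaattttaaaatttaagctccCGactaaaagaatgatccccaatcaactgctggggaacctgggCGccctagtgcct
Zbtb44 promoter: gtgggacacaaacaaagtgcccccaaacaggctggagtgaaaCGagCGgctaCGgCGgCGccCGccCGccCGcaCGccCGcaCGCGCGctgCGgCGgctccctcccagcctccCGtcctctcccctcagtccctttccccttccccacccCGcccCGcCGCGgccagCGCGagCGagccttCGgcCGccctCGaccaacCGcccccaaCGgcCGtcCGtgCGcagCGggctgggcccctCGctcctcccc
Zbtb7a promoter: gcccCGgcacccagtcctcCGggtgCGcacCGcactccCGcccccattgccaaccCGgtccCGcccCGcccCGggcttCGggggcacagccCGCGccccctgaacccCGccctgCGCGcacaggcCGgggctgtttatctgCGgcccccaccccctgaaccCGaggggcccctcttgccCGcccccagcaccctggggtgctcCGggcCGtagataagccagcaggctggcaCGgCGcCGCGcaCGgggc

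Zbtb family promoters were rich in CG. Promoters on chromosome 18, where Zbtb7c lies, were left out of this and all promoter counts below. RefSeq promoters were matched by symbol for 37 of the 43 members, with 51 start sites. Zbtb10, Zbtb16, Zbtb40, Zbtb48 and Bcl6b had no entry. The median promoter of a member held 20 CG in 250 bases, against 10 over 19816 promoters of 16216 genes. Among genes with an FPKM of at least 1 in either library, the medians were 20.5 and 16. The printed windows spanned 47 CG for Zbtb18, 33 for Zbtb44, 26 for Zbtb7a, 21 for Bcl6, 14 for Zbtb8os and 8 for Zbtb8a. Zbtb18 varied most by start site, since its 4 other listed starts held 0, 0, 2 and 2.

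3 motifs of early B cell factors were searched on both strands of the same windows. The EBF1 core CCCNNGGG lay in 4 of 51 member promoters (7.84%) and in 13.8% of all promoters. The 4 were those of Zbtb7a, with 2 matches, and of Zbtb14, Zbtb21 and Zbtb24 with 1 match each. The E-box CAGGTG, bound by E2A proteins, lay in 11.8% of member promoters and 16.8% of all. The member promoters were those of Zbtb7b, Zbtb8b, Zbtb8os, Zbtb38, Zbtb46 and Zbtb49. For Zbtb7b and Zbtb38 not every listed start held a match. The Ikaros core TGGGAA lay in 21.6% and 21.1%. These matches describe letters in a window and locate no binding.

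Most of the family was measured in both cell types. In pre-pro-B cells 37 of 43 members (86.0%) had an FPKM of at least 1, where 49.5% of all 20250 genes did. In pro-B cells 35 (81.4%) did, against 46.2% of all genes, and the same 35 were past this level in both libraries. The levels themselves were ordinary for expressed genes, with a median of 13.5 among the members past 1 in pre-pro-B against 14.1 for all such genes, and 10.7 against 14.2 in pro-B. An FPKM of 10 or more was reached by 23 members in pre-pro-B and 18 in pro-B. Summed over the family the FPKM was 559 in pre-pro-B (0.180% of the total over all named genes) and 636 in pro-B (0.188%). Without Zbtb18 and Zbtb8os the sums were 518 and 468, so these 2 genes set the direction of the family total.

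Of the 5 highest members, 3 were the same in both libraries, namely Zbtb1, Zbtb6 and Zbtb33. Zbtb1, a factor that lymphoid progenitors need, was highest in pre-pro-B at 59.6 (limits 7.05 to 114), followed by Zbtb6 at 46.8, Zbtb44 at 39.4, Zbtb33 at 36.6 and Zbtb9 at 25.6. In pro-B the order was Zbtb18 at 104, Zbtb6 at 67.6, Zbtb8os at 64.7, Zbtb1 at 63.3 and Zbtb33 at 34.3. The limits of the main transcripts of neighbours in these orders overlapped. The limits were wide throughout, since the upper limit was a median of 2.22 times the FPKM over member values of at least 1 (range 1.77 to 4.41).

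**Figure D1:**
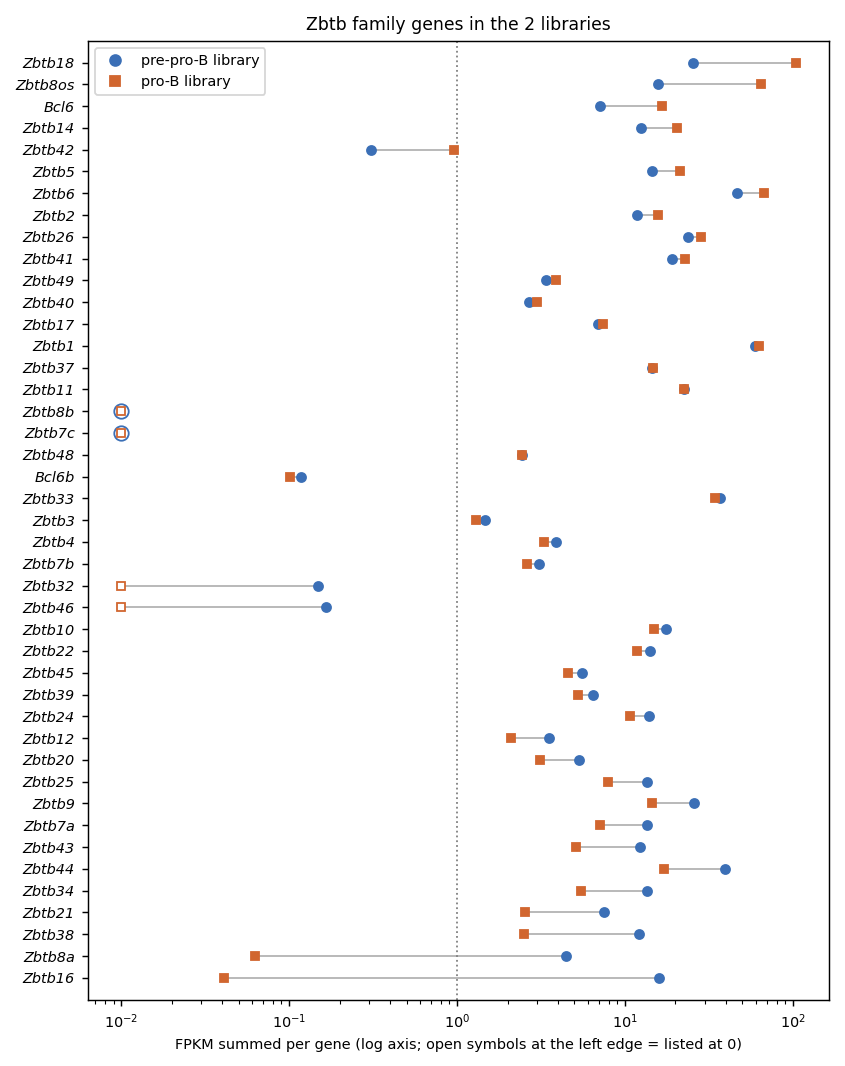
FPKM summed per gene for the 43 Zbtb family genes in the pre-pro-B library (circles) and the pro-B library (squares), on a log axis, ordered from the highest ratio of pro-B over pre-pro-B at the top to the lowest at the bottom, by the log2 ratio with 1 added to each FPKM. The dotted line marks an FPKM of 1, open symbols at the left are values listed at 0, and the 2 longest lines to the left belong to Zbtb16 (15.9 to 0.0407) and Zbtb8a (4.45 to 0.0626).

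A ratio of pro-B over pre-pro-B was taken for members with an FPKM above 0 in both libraries and at least 1 in 1 of them, which left 37 members and 10284 genes in all. At least 2-fold higher in pro-B were 3 of the 37 (8.11%), where 14.3% of all genes were. At least 2-fold lower were 7 (18.9%), where 20.9% of all genes were. The lower share lay near the background. The higher share lay below it but rests on 3 genes. With a floor of FPKM 1 in both libraries, 3 of 35 members were higher, against 11.8% of all genes. Without Zbtb8os, which is no zinc finger gene, 2 of 36 were higher. The median log2 ratio of the members was -0.22 (quartiles -0.78 and 0.18), and that of all genes was -0.14 (quartiles -0.80 and 0.47). The remaining 27 members lay between -0.94 and 0.71, 12 of them above 0 and 15 below.

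**Figure D2:**
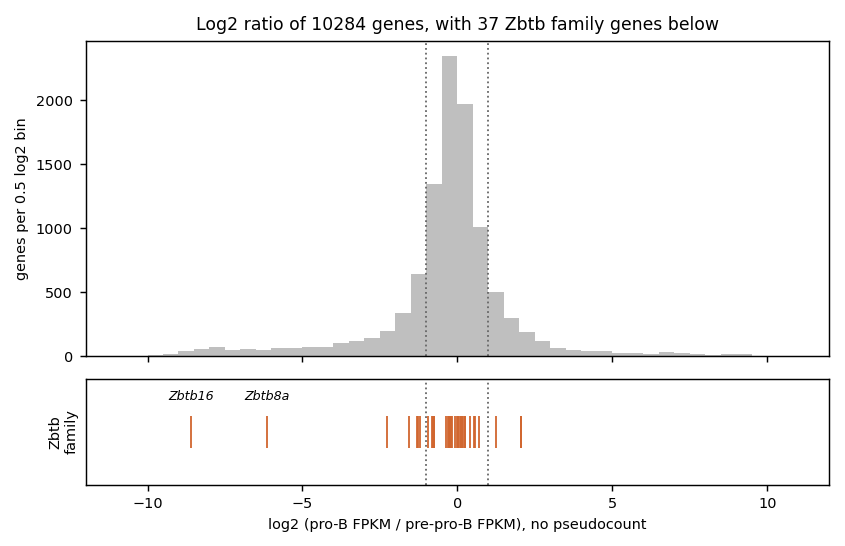
Log2 ratio of pro-B over pre-pro-B FPKM for 10284 genes (histogram, genes per bin) and for 37 Zbtb family genes (ticks below), with dotted lines at a 2-fold difference in either direction. The members' ticks lie around the centre of the histogram, apart from Zbtb16 at -8.61 and Zbtb8a at -6.15.

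For 6 members there was no ratio. Zbtb42 was below 1 in both libraries at 0.309 and 0.962, as was Bcl6b, the closest relative of Bcl6, at 0.118 and 0.101. Zbtb32, known as a repressor of cytokine genes in T cells, was at 0.148 in pre-pro-B and listed at 0 in pro-B. Zbtb46, which marks classical dendritic cells, was at 0.165 in pre-pro-B and likewise listed at 0 in pro-B. Zbtb7c and Zbtb8b were listed at 0 in both. For the members so low, the depth behind a value is small. At about 90000000 reads in each library, as the labels give them, the Zbtb32 value corresponds to about 23.7 fragments and the Bcl6b values to about 36.3 and 31.1.

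Among the 11 members known for roles in blood lineages, 1 passed the 2-fold limit upward in pro-B and 1 was lower, of 8 with a ratio, against 14.3% and 20.9% of all genes. Their median log2 ratio was -0.30. Zbtb16 differed most of the family. It lies at chr9:48462402-48644050 in the mouse build mm9, which the deposited table uses. Its single transcript NM_001033324 stood at 15.9 (limits 0.919 to 44.6) in pre-pro-B and at 0.0407 (0 to 0.193) in pro-B. This is a 390-fold lower level (log2 ratio -8.61), or about 7309 fragments against 18.8. The size depends on the low pro-B value, since the log2 ratio was -6.83 with a pseudocount of 0.1 and -4.02 with a pseudocount of 1. It was the only member transcript, 1 of 56, whose limits in the 2 libraries did not overlap, where 2.13% of 26319 transcripts did not.

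Markers of other cells that could carry Zbtb16 moved in the same direction. Of the 4 T cell genes, all were lower in pro-B by value, with Cd3g at 36.8 and 0.0351, Cd4 at 1.15 and 0, Cd8a at 0.322 and 0, and Cd3e, a defining part of the T cell receptor complex, near 0 at 0.239 and 0.102. Of the 5 myeloid genes, Mpo stood at 35.7 and 0.122, Itgam at 19.7 and 6.40 and Lyz2 at 5.39 and 0. Csf1r was near 0 in both libraries, at 0.170 and 0, and Elane was listed at 0 in both. Their part in the Zbtb16 difference was not tested.

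Bcl6 was the blood lineage member that was higher in pro-B. Its transcript NM_009744, at chr16:23965138-23988698 in mm9, stood at 7.13 (limits 0.313 to 16.6) in pre-pro-B and at 16.7 (0.794 to 36.8) in pro-B, a 2.35-fold difference. The limits overlapped between 0.794 and 16.6.

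Zbtb7a fell just short of the 2-fold limit. Its transcript NM_010731, at chr10:80599016-80614402 in mm9, stood at 13.6 (limits 1.08 to 29.2) in pre-pro-B and at 7.09 (0.0882 to 16) in pro-B, a 1.92-fold lower level. Rescaling each library to TPM, in which the levels of a library sum to the same total, put it past 2-fold, at a log2 ratio of -1.03 in place of -0.94.

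Zbtb17 was level between the libraries. Its transcript NM_009541 stood at 6.88 (limits 0 to 29.5) in pre-pro-B and at 7.43 (0.104 to 24.5) in pro-B, a log2 ratio of 0.11. The locus deposited for it, chr4:141000588-141094512 in mm9, also covers the neighbouring gene Spen.

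The other blood lineage members with a ratio lay within 2-fold. Zbtb1 was at 59.6 and 63.3. Zbtb24, which is mutated in a human syndrome of immunodeficiency with unstable centromeres, was at 13.8 and 10.7. Zbtb20, which acts in plasma cells and liver, was at 5.36 and 3.14. Zbtb7b (ThPOK), the factor that sets the helper T cell fate, was at 3.07 and 2.60 and so present at a low level in both libraries.

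3 members bind methylated CG through their zinc fingers, and they did not move together. Zbtb33 (Kaiso) was at 36.6 in pre-pro-B and 34.3 in pro-B, and Zbtb4 at 3.86 and 3.31. Zbtb38 was lower in pro-B, at 12.2 (limits 1.15 to 23.5) and 2.50 (0.0869 to 9.39), a 4.88-fold difference. The median log2 ratio of the 3 was that of Zbtb4, -0.22. The 2 members that bind telomeric repeats were within 2-fold, with Zbtb10 at 17.6 and 14.9 and Zbtb48 (TZAP) at 2.45 and 2.43.

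**Figure D3:**
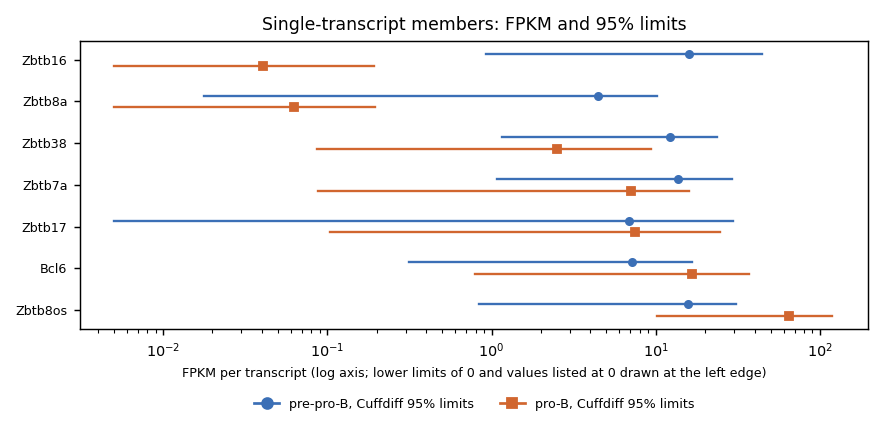
FPKM of the single-transcript members that differed at least 2-fold and of Zbtb7a and Zbtb17, in pre-pro-B (circles) and pro-B (squares) on a log axis, with lines for the 95% limits that Cuffdiff wrote for each value. The lines of the 2 libraries are apart for Zbtb16 alone, with a lower limit of 0.919 in pre-pro-B against an upper limit of 0.193 in pro-B.

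Of the 26 remaining zinc finger members, 1 was higher in pro-B and 5 were lower, of 23 with a ratio, against 14.3% and 20.9% of all genes, so the lower count was at the background. Their median log2 ratio was -0.18. The higher gene was Zbtb18 (RP58), a repressor known best from the developing cortex. It was at 25.3 in pre-pro-B and 104 in pro-B, a 4.11-fold difference. Both of its transcripts were higher. NM_001012330 went from 19.4 (limits 0.482 to 40.8) to 81.9 (5.34 to 170), and NM_013915 from 5.92 (0 to 17.4) to 22.1 (0 to 66.6). The first made up 76.6% of the gene in pre-pro-B and 78.7% in pro-B.

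Genes of stromal cells, which the OP-9 layer would bring, were also higher in pro-B by value for 4 of 5 markers, with Col1a2 at 0.707 and 2.82, Sparc at 1.13 and 2.81, Col3a1 at 0.242 and 1.13 and Col1a1 at 0.207 and 0.522. The other marker, Pdgfrb, was at 15.9 and 0.377. Their part in the higher levels of Zbtb18, Zbtb8os and Bcl6 was not tested.

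Zbtb8a was the member with the second largest difference. Its transcript NM_028603 stood at 4.45 (limits 0.0177 to 10.2) in pre-pro-B and at 0.0626 (0 to 0.195) in pro-B, a 71.1-fold lower level (log2 ratio -6.15), or about 893 fragments against 12.6. With a pseudocount of 1 the log2 ratio was -2.36. The limits overlapped, because the lower limit in pre-pro-B was close to 0. Zbtb8os, whose gene ends 6602 bases from that of Zbtb8a on chromosome 4, went the other way, from 15.8 (0.838 to 30.7) to 64.7 (10.2 to 119), a 4.10-fold higher level. The last gene of this stretch, Zbtb8b, was listed at 0 in both libraries.

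The remaining lower members differed by between 2.31- and 2.98-fold. Zbtb21 was at 7.54 and 2.53, Zbtb34 at 13.5 and 5.49, Zbtb43 at 12.3 and 5.10, and Zbtb44 at 39.4 and 17.0. Little is known of these 4 genes in lymphocytes. Zbtb34 and Zbtb43 are neighbours on chromosome 2, with 18963 bases between them, and were lower by 2.47- and 2.41-fold. Zbtb44 lies at chr9:30838229-30883470 in mm9.

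Other members that lie side by side were within 2-fold of each other in their ratios. Zbtb6 and Zbtb26, 1248 bases apart on chromosome 2, were 1.44- and 1.19-fold higher in pro-B, at 46.8 and 67.6 for Zbtb6 and 23.8 and 28.4 for Zbtb26. Zbtb25 and Zbtb1, 705 bases apart on chromosome 12, had log2 ratios of -0.78 and 0.09. Zbtb25 was at 13.5 in pre-pro-B and 7.90 in pro-B.

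Members without a 2-fold difference included several of the better known repressors. Zbtb2 was at 11.8 in pre-pro-B and 15.7 in pro-B. Zbtb5, which represses the cell cycle inhibitor Cdkn1a, was at 14.4 and 21.3. Zbtb14 (ZF5), found as a repressor of the Myc promoter, had the highest ratio among the 27, at 12.5 and 20.5. Zbtb11, at 22.4 and 22.6, and Zbtb37, at 14.5 and 14.7, were nearly level. At the other end Zbtb9 was at 25.6 and 14.5, and Zbtb12 at 3.53 and 2.08. Zbtb22, Zbtb39, Zbtb40, Zbtb41, Zbtb45 and Zbtb49 completed the group, with log2 ratios between -0.29 and 0.25.

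11 members had several RefSeq protein-coding transcripts, 24 in all, and the most abundant transcript was the same in both libraries for 10 of them. Zbtb46 counts among the 10 although neither of its transcripts was above 0 in pro-B. Zbtb3 counts among them by a near tie in pro-B, with NM_133759 at 50.2% of the gene and NM_001098237 at 49.8%. In pre-pro-B NM_133759 made up 99.996% of Zbtb3. The exception was Zbtb21, where NM_001081685 made up 57.7% of the gene in pre-pro-B and 20.9% in pro-B, and NM_175428 made up 18.1% and 53.2%. The level of NM_175428 itself was 1.36 and 1.35, while that of NM_001081685 was 4.35 and 0.530. The lower limit of every one of these values was below 0.04.

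In 2 of the 11, Zbtb34 and Zbtb44, transcripts of the same gene moved at least 2-fold in opposite directions, where 4.35% of 3657 genes with several transcripts did. Zbtb44 NM_001115130 went from 39.4 (limits 3.25 to 75.8) to 13.1 (0.477 to 27.1), while NM_172765 went from 0.00480 (0 to 0.00636) to 3.96 (0 to 12). The transcripts differ in length by 54 bases of 8863. Zbtb34 NM_001085507 went from 13.5 (0.717 to 26.9) to 4.40 (0.0750 to 9.88), while NM_001276332 went from 0.00625 (0 to 0.00860) to 1.09 (0 to 4.0), with a length difference of 120 bases. The minor transcripts in pre-pro-B amounted to about 3.81 and 3.65 fragments.

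Such very low values were found for other members with transcripts of similar length. Above 0 but below an FPKM of 0.01 in a library were 5 of 56 member transcripts, against 7.28% of 26555 transcripts, and all 5 belong to genes with several transcripts. Beside Zbtb34 and Zbtb44 these were Zbtb3 NM_001098237 at 0.0000605 and 0.645, Zbtb25 NM_001172104 at 0.660 and 0.0000941, and Zbtb43 NM_001025594 at 0.0325 and 0.000667. The transcripts of Zbtb25 differ in length by 6 bases, those of Zbtb43 by 92 and those of Zbtb3 by 120. For 3 of the member transcripts, as for 1105 in all, the upper limit written by Cuffdiff was below the FPKM itself. The gene sums depend on this division of reads only through the unequal lengths of the transcripts, and Zbtb3 was at 1.47 and 1.3 as a sum. Taken by its most abundant transcript alone, Zbtb3 would have a log2 ratio of -1.18.

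**Figure D4:**
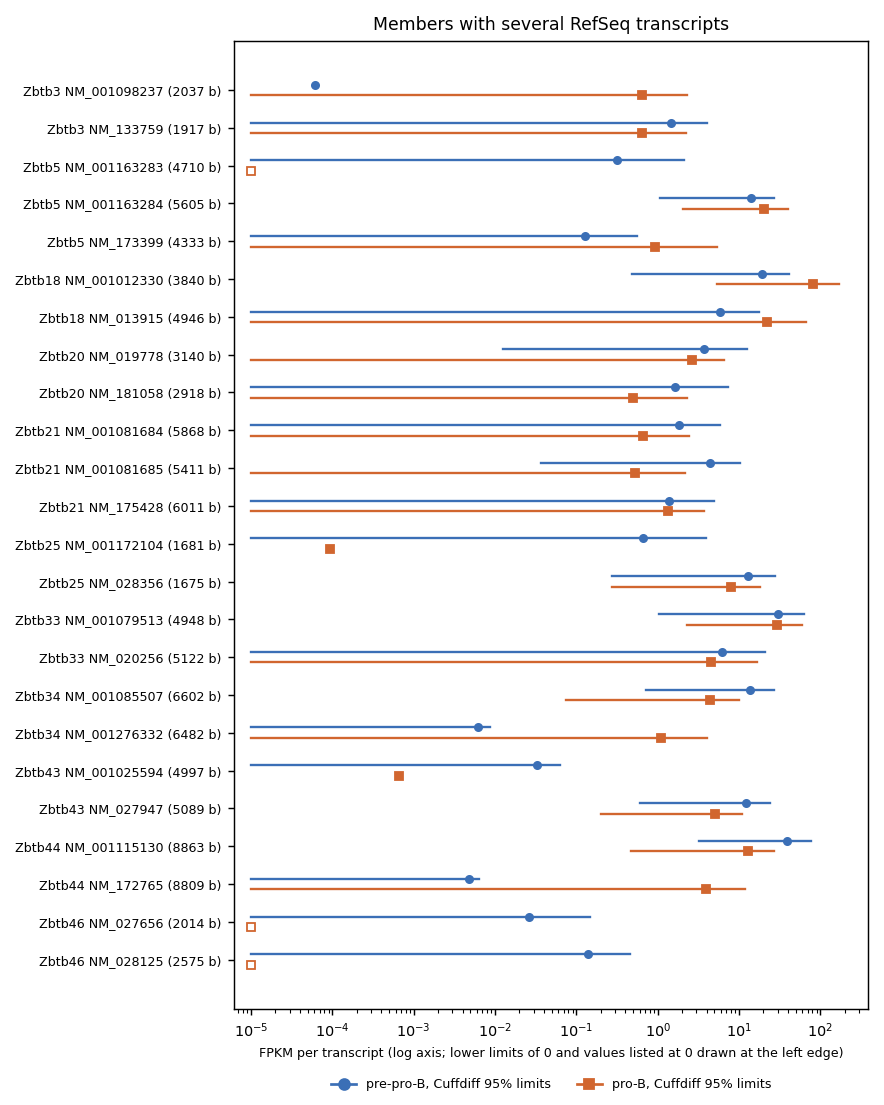
FPKM of the 24 transcripts of the 11 members with several RefSeq transcripts, labelled with their lengths in bases, in pre-pro-B (circles) and pro-B (squares) on a log axis, with lines for the 95% limits that Cuffdiff wrote (none is drawn where both limits are 0). Minor transcripts of Zbtb3, Zbtb25, Zbtb34, Zbtb43 and Zbtb44 lie below 0.01 in a library in which the other transcript of the gene lies above 1.

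Genes that work with the family were read from lists of known biology. Of 5 further BTB-zinc finger genes without the Zbtb name, 3 had a ratio. Of these 1 was higher in pro-B and 0 were lower, against 14.3% and 20.9% of all genes, and 3 genes are too few to set against these shares. Gzf1 was at 12.3 in pre-pro-B and 26.3 in pro-B, Patz1, which acts in thymocytes, at 17.2 and 16.7, and Hic2 at 2.46 and 1.78. Hic1, a repressor silenced in tumours, was below 1 in both at 0.576 and 0.0326, and Zfp131 was listed at 0 in both.

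Of 10 corepressors and partners, 1 was at least 2-fold higher in pro-B and 2 were lower, near the 14.3% and 20.9% of all genes, and the median log2 ratio was -0.24. The BTB-bound corepressor Ncor1 was at 72.9 in pre-pro-B and 66.2 in pro-B, its catalytic partner Hdac3 at 46.6 and 48.1, and the ubiquitin ligase scaffold Cul3 at 137 and 118. The corepressors Sin3a, at 61.0 and 57.2, and Ctbp1, at 90.1 and 75.4, were within 2-fold. Mta3, a Mi-2/NuRD subunit that works with Bcl6 in germinal centre B cells, was at 42.1 and 11.2, and Bcor, the other Bcl6 corepressor, at 24.9 and 13.6. Of the Zbtb17 partners, Myc was at 19.0 and 5.88, its dimer partner Max, within 2-fold, at 34.5 and 21.9, and Gfi1, a repressor that joins Zbtb17 at promoters, at 2.86 and 10.7.

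Of 9 known targets of family members, 8 had a ratio, 2 passed the 2-fold limit upward in pro-B and 3 were lower, against 14.3% and 20.9% of all genes, and the median log2 ratio was -0.39. Bcl2, a survival gene described as activated by Zbtb17 and repressed by Bcl6, was at 172 in pre-pro-B and 10.4 in pro-B. Id2, an inhibitor of E proteins, was at 182 and 7.95. Socs1, an inhibitor of IL-7 signalling that Zbtb17 represses, was at 6.41 and 2.30. Cdkn2a, repressed by Zbtb7a and Bcl6, was at 0.308 and 3.60, and Prdm1, repressed by Bcl6, at 0.0190 and 1.01. With a pseudocount of 1 Prdm1 came under the 2-fold limit, at a log2 ratio of 0.98. The cell cycle inhibitor Cdkn2b was below 1 in both, at 0.0423 and 0.607. Cdkn1a was at 8.56 and 14.2, Bcl2l11 (Bim) at 22.1 and 17.3 and Ccnd2 at 34.9 and 26.2, all within 2-fold. Many other factors act on these genes, and their values are a description only.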

How the data were processed

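Total RNA was depleted of ribosomal RNA, made into strand-specific libraries and sequenced to about 90000000 single-end reads each. The authors trimmed and aligned the reads to mm9 with TopHat in a stranded setting (version 1.5 in the submitters' processing notes; another version is named elsewhere in the sources) and computed FPKM per RefSeq transcript with Cuffdiff 2.1.1, with correction for bias and for multiply mapped reads; these deposited FPKM and their 95% limits were used as they stand. A further deposited table holds the authors' fold changes, p-values and q-values and was not used. Here FPKM were summed per gene over protein-coding (NM_) transcripts, and ratios were taken without a pseudocount for genes above 0 in both libraries and at least 1 in 1 of them. Differences were called at 2-fold; with 1 library per cell type no test was run. FPKM hold no counts, so fragments were approximated as FPKM times transcript length in kilobases times 90, the rounded number of reads in the labels and not the mapped reads, and they cover counting error only. Of the transcripts, 413 protein-coding rows had an accession that matched no gene symbol and could not be assigned. Members, lists and tests were chosen with earlier results of these data known. The genes named are the members, genes of the fixed lists and the cell type markers (some of these as a sum only), and Spen, named after its overlap with Zbtb17 was seen; 2 list genes are not reported here. Alternatives were pseudocounts of 0.1 and 1, other floors, leaving out Zbtb8os, TPM, median-ratio scaling and the most abundant transcript. Scripts used Python 3.11.15, numpy 2.4.6, pandas 2.3.3 and matplotlib 3.10.9 and were tested on simulated data.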

Additional observations from a re-analysis of the deposited data

How the results depend on the processing

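No paired analysis was possible because each cell type has 1 library and the results come from no test. Of 66 values recomputed under alternatives, 62 kept their direction and stayed within the limits set for a change. The exceptions were the members' median log2 ratio, which was -0.11 under median-ratio scaling in place of -0.22, the Zbtb16 log2 ratio, which was -4.02 with a pseudocount of 1 in place of -8.61 (-6.83 with 0.1), the members with transcripts moving in opposite directions, which were 0 with a 4-fold limit in place of 2, and the known targets higher in pro-B, which were 1 with a pseudocount of 1 in place of 2. The cause of each was not tested beyond the construction of the setting. The 62 are no measure of robustness, since some of them could not move. Zbtb7a, Zbtb16 and Zbtb17 have 1 transcript each, so the most abundant transcript repeats their values. Their standard errors, taken from the width between Cuffdiff's 95% limits, were wide at 1.12, 2.02 and 1.99 log2 units. These errors are rough and may be too small. A lower limit stops at 0, as it did for Zbtb16 in pro-B and for Zbtb17 in pre-pro-B. Zbtb16 with a pseudocount of 0.1 and Zbtb7a under TPM counted among the 62. The limit for a median was a log2 change of 0.1. Of single members, Zbtb7a came past 2-fold lower under TPM (log2 ratio -1.03), Zbtb42 came past 2-fold higher with no floor (1.64), under TPM (1.54) and under median-ratio scaling (1.73), and Zbtb3 came past 2-fold lower by its most abundant transcript (-1.18). TPM moved every log2 ratio by -0.09, and the median-ratio scaling moved every one by 0.09, the other way. The alternative that kept only transcripts whose upper limit is at least their FPKM was chosen after seeing the data. Fragments were approximated from a rounded read number of about 90000000, so those of members with FPKM below 1 are rough.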

Other observations

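6 non-coding RefSeq transcripts overlap the loci deposited for members, in whole or in part. Zbtb11os1 (NR_027965), named for the strand opposite Zbtb11, was at an FPKM of 5.19 (limits 0 to 16.2) in pre-pro-B and 1.58 (0 to 4.30) in pro-B, a 3.29-fold lower level, while Zbtb11 itself was at 22.4 and 22.6. The libraries were strand-specific and the study's alignment settings name a stranded library type. The other 5 were below 1 in both libraries. E030011O05Rik, which overlaps the Zbtb38 locus, was listed at 0 in pre-pro-B and at 0.491 in pro-B. Gm15417, which overlaps the Zbtb7b locus, had transcripts at 0.346 and 0.316 in pre-pro-B and at 0.0357 and 0.288 in pro-B. Gm15713, which overlaps the Zbtb20 locus, was at 0.132 in pre-pro-B and listed at 0 in pro-B. 2900057B20Rik, which overlaps the Zbtb7c locus, was listed at 0 in both.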
